A study of Mus musculus with 20 samples.

Results

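RNAs read from the mouse mitochondrial genome were followed in cauda epididymosomes, the extracellular vesicles of the lumen of the epididymal tail. They were taken as every row of the 2 deposited count tables whose name starts with mt-, which gave 36 of 72034 rows in one table (labelled with size selection) and 36 of 59035 rows in the other (labelled without it). Each set of 36 held 21 tRNAs, 2 rRNAs and 13 mRNAs, and the names were the same in both tables. The reference annotation (GENCODE vM21, GRCm38) places 37 genes on this genome, and the tyrosine tRNA mt-Ty is not analysed here.

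The study sequenced small RNA from epididymosomes of 5 Control and 5 MSUS male mice, all 9 months old. MSUS stands for a paradigm of early life stress that joins unpredictable maternal separation to stress of the dam. As pups the males were parted from their dams for 3 h a day over the first 2 weeks of life, at unpredictable times, and the dams were restrained or forced to swim, whereas Control litters were left undisturbed. Vesicles were pelleted at 120000 rcf from fluid left after sperm had been removed by swim-up, and each animal's library (NEB Next Small RNA kit) was sequenced in 2 runs, one of them after a selection meant to enrich miRNAs. The labels do not say whether animals of a group came from separate litters, and in such a pellet fewer vesicles cannot be told apart from less RNA per vesicle. Library totals ran from 1872084 to 3647956 estimated counts in the table that carries the with-selection label (below, the with-selection table) and from 215231 to 871461 in the other (the without-selection table). Mature miRNAs took 10.9 to 17.0% of counts in the with-selection table and 52.4 to 72.2% in the without-selection table, which is the reverse of what a selection for miRNAs would be named for, so the tables are told apart here only by their labels. Libraries Control 9, Control 11 and MSUS 14 stood apart from the rest of the with-selection table, with cytosolic tRNA at 14.5 to 25.3% of counts against 34.6 to 66.0% in the 7 others. Summed markers of epididymal epithelium came to 0.256 to 0.560% of counts in Control and 0.0928 to 0.382% in MSUS libraries of that table. Sperm and spermatid markers came to 0.0330 to 0.0624% and 0.0280 to 0.0621%. Muscle and stroma markers took 0.0470 to 0.139% and 0.0225 to 0.138%, and blood markers 0.0112 to 0.0272% and 0.00495 to 0.0197%. Of 22 epithelial markers 2 had no row there, and no marker that had a row was at 0 in every library. The 3 libraries that stood apart had 0.382 to 0.560% epithelial markers there and the 7 others 0.0928 to 0.296%.

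The mitochondrial genome is a small circle that carries genes for part of the respiratory chain, for the 2 rRNAs of the mitochondrial ribosome and for the tRNAs that this ribosome needs. Both strands are copied into long RNAs in which tRNAs sit between the longer genes, and the cuts that free each tRNA, by RNase P at its 5′ end and ELAC2 at its 3′ end, also free its neighbours, after which TRNT1 adds CCA to the tRNA. Sperm keep mitochondria in the midpiece after losing most of their cytoplasm, and the epididymal epithelium, which sheds epididymosomes, includes clear cells rich in them. Small RNA libraries read short pieces, and the counts do not tell a whole tRNA from a fragment of one, or an mRNA from its debris.

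Mitochondrial RNA made up 1.01 to 2.70% of counts in the with-selection table and 0.635 to 1.41% in the without-selection table. The tRNAs and rRNAs held nearly all of it. In the with-selection table the 21 tRNAs took 0.956% ± 0.403 (SD, n = 10 animals) of the library and the 2 rRNAs 0.940% ± 0.195, whereas the 13 mRNAs together took 0.0388% ± 0.0122. Below, the level of a gene is in counts per 1000000 counts of the library (CPM) unless another scale is named. The plot of every gene's level shows how unevenly tRNAs cut from the same long RNAs were represented, from 6580 CPM for mt-Th to 2.52 CPM for mt-Tf in the with-selection table.

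**Figure D1:**
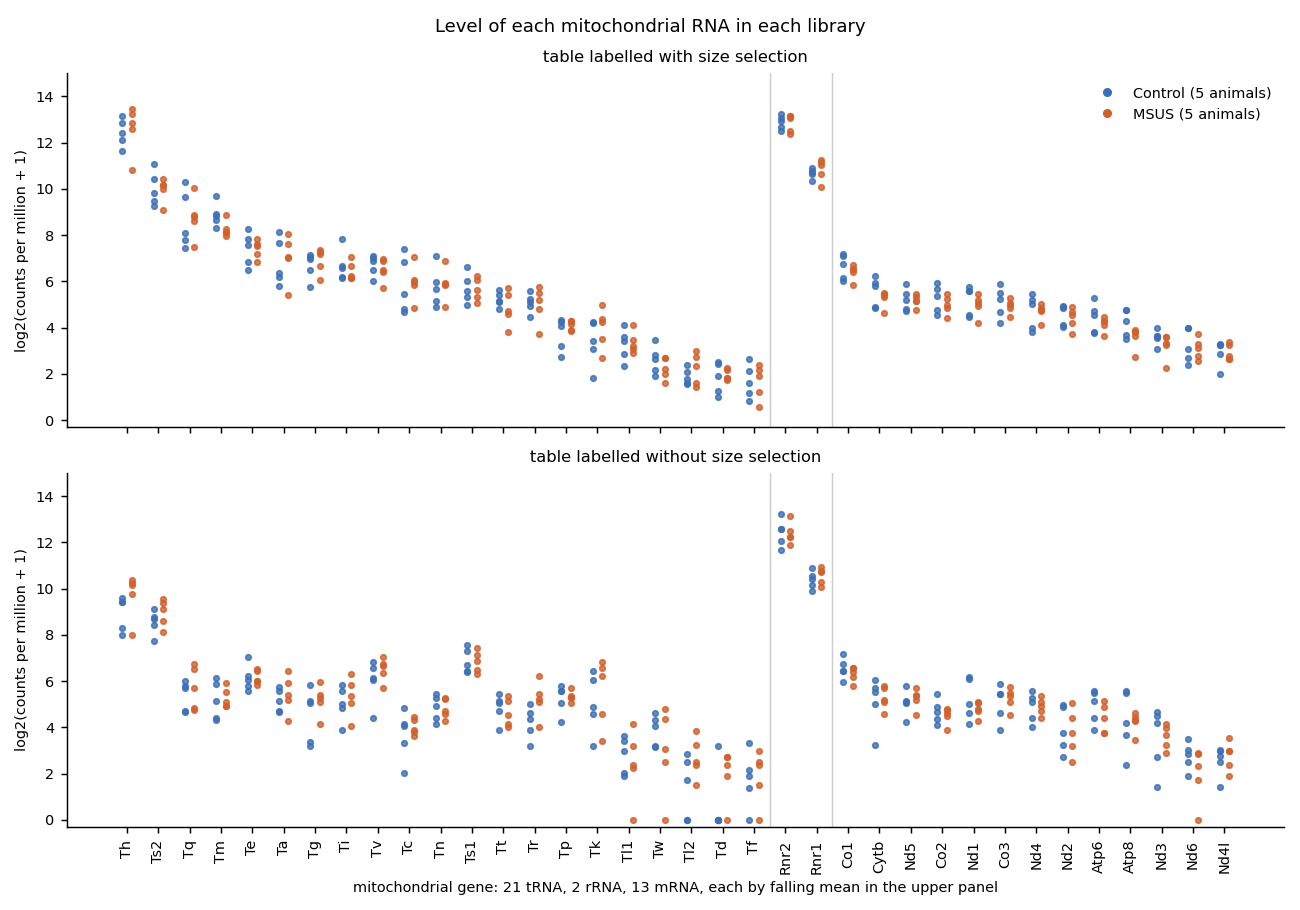
Level of each of the 36 mitochondrial RNAs, as log2(CPM + 1), in the 5 Control and 5 MSUS libraries (1 point each) of the table labelled with size selection (top) and without it (bottom). The histidine tRNA mt-Th and the 16S rRNA mt-Rnr2 are highest in the top panel, and the Control and MSUS points overlap for every gene.

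Among tRNAs the histidine tRNA mt-Th led. It held 67.5% ± 6.96 of mitochondrial tRNA counts in the with-selection table (range 54.3 to 75.7%) and ranked first in 10 of 10 libraries. In the other table it held 36.9% ± 9.25 (21 to 46.5%) and ranked first in 8 of 10. The serine tRNA for AGY codons, mt-Ts2, followed with 12% ± 2.66 and 24.2% ± 3.10, and ranked first in the other 2 libraries of the without-selection table. These genes are immediate neighbours on the plus strand, mt-Th at chrM:11546-11612 and mt-Ts2 at chrM:11613-11671, and the leucine tRNA for CUN codons mt-Tl2 begins on the last base of mt-Ts2 (chrM:11671-11741). This cluster is printed first because it holds the highest tRNA and one of the lowest side by side. All sequences are the plus or minus strand gene as GENCODE vM21 gives it on GRCm38, 5′ to 3′, with the anticodon in capitals.
mt-Th: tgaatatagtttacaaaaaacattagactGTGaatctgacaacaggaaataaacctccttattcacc
mt-Ts2: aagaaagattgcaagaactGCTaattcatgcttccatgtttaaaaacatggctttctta
mt-Tl2: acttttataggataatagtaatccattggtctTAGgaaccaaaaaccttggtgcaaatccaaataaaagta
At the end of the cluster mt-Tl2 had 4 to 17 counts per library in the with-selection table and 0.0387% ± 0.0163 of the tRNA total. The count of mt-Th over that of mt-Tl2 had a median of 1913 there (1033 to 3755 in 10 libraries) and of 139 in the 8 libraries of the without-selection table in which mt-Tl2 was not at 0. The serine tRNA mt-Ts2 is the shortest of the set, 59 bases, and is known to lack the D arm of a usual tRNA.

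The next ranks differed between the tables. In the with-selection table the third rank went to the glutamine tRNA mt-Tq, on the minus strand at chrM:3772-3842, with 5.10% ± 1.88 of tRNA counts, closely followed by the methionine tRNA mt-Tm on the plus strand (chrM:3845-3913) with 4.92% ± 2.41. In the other table it was the serine tRNA for UCN codons, mt-Ts1, minus strand, chrM:6870-6938, with 6.98% ± 2.70. Also shown are the tRNAs of proline, mt-Tp (minus strand, chrM:15356-15422), and lysine, mt-Tk (plus strand, chrM:7700-7764). The comparison of the tables, further on, turns on these 5 sequences.
mt-Tq: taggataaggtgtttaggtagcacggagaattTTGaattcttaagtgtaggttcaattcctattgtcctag
mt-Tm: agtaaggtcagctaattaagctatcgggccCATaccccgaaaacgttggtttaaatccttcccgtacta
mt-Ts1: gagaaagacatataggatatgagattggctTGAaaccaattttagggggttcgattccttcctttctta
mt-Tp: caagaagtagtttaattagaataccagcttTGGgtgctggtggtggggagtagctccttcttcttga
mt-Tk: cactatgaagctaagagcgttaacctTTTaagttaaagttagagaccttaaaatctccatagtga
At the low end stood the phenylalanine, aspartate and CUN leucine tRNAs. Mean levels of mt-Tf, mt-Td and mt-Tl2 were 2.52, 2.89 and 3.45 CPM in the with-selection table, and in the without-selection table they were at 0 in 2, 5 and 2 of 10 libraries. Of the 21 tRNAs 12 held under 1% of tRNA counts each in the first table and 6 in the second. The order was stable among libraries of the with-selection table (Spearman rho between pairs of libraries 0.915 to 0.993 over 21 tRNAs, given as a description) and looser in the shallower without-selection table (0.621 to 0.954). Over the 21 tRNAs, Spearman rho of the mean share with GC content was 0.13 and 0.25 in the 2 tables, and with length -0.10 and -0.24. By strand, the 7 minus strand tRNAs had a median share of 0.717% and the 14 plus strand tRNAs of 0.379% in the with-selection table, although the leading pair, mt-Th and mt-Ts2, is on the plus strand.

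For the rRNAs, the 16S RNA of the large ribosomal subunit, mt-Rnr2 (chrM:1094-2675, plus strand), stood above the 12S RNA of the small subunit, mt-Rnr1 (chrM:70-1024, plus strand), in every library of both tables. Mean levels of mt-Rnr2 were 7615 ± 1595 CPM in the with-selection table and 5771 ± 2105 in the other, against 1781 ± 425 and 1455 ± 350.1 for mt-Rnr1. Per kilobase of gene, mt-Rnr2 had 4813 and 3648 CPM and mt-Rnr1 1865 and 1524, a ratio of 2.58 in the with-selection table and 2.39 in the without-selection table. The 16S RNA took 81.1% ± 2.00 of rRNA counts in the first and 79.2% ± 3.79 in the second. On the same scale mt-Th had 98206 CPM per kilobase in the with-selection table and 11170.5 in the without-selection table, and mt-Ts2 18658 and 7783.

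The 13 mRNAs lay far below. Before the nuclear copies described next were taken into account, their levels per kilobase ran from 16.6 to 73.9 CPM in the with-selection table and from 9.66 to 106 in the without-selection table. Cytochrome oxidase subunit mt-Co1 was the most abundant by CPM, 95.0 ± 28.7 and 88.0 ± 24.9, and the ATP synthase subunit mt-Atp8, the shortest of them, was highest per kilobase in both tables. The only mRNA of the minus strand, mt-Nd6 (chrM:13552-14070), a subunit of complex I, was lowest per kilobase in both tables. Its 3′ end overlaps that of mt-Nd5 (chrM:11742-13565, plus strand), another complex I subunit. Counts of mt-Nd5 over mt-Nd6 had a median of 4.88 in the with-selection table (2.41 to 5.98), or 1.21 per kilobase from summed CPM, and of 6.56 in the 9 libraries of the other table in which mt-Nd6 was not at 0. The sources used here do not say how strand was handled, so reads from overlapping genes cannot be told apart.

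Several mRNA rows have a near-identical nuclear copy with a row of its own, and no source used here says how reads were divided between them. The nuclear genome carries a nearly intact copy of a stretch of mitochondrial DNA on chromosome 1, minus strand, annotated as 7 genes between 24611535 and 24616197 (GRCm38). Aligned to the mitochondrial genes, Gm10222, Gm10925, Gm28437 and Gm28661 matched mt-Nd4l, mt-Atp6, mt-Co3 and mt-Co2 at 100% of aligned bases. Their counts equalled those of the mitochondrial gene, within 0.001 counts, in 2 to 10 of 10 libraries, depending on gene and table, and each copy held from 49.6% to an equal share of the counts of the pair. Gm28439, an identical but partial copy of mt-Nd4, held 28.8 to 32.2% of its pair's counts, Gm28438 (99.7% identity to mt-Nd3) 29.6 to 29.9% and Gm29216 (99.8% identity to mt-Co1) 14.1 to 14.4%. The level of each of these 7 mRNAs is therefore uncertain by about the share of its copy. On the mitochondrial genome mt-Ts1, mt-Td, mt-Tk, mt-Atp8, mt-Tg and mt-Tr also lie between mt-Co1 and mt-Nd4. Whether the chromosome 1 stretch holds copies of them was not examined, so their levels may share this limit. With the copies added, mt-Co2 became the most abundant mRNA per kilobase in the with-selection table (103 CPM per kilobase, against 52.0 alone), followed by mt-Co3 (84.3 against 42.2). In the without-selection table mt-Atp8 stayed first, at 106 CPM per kilobase. No copy was added to mt-Atp8 in either table, so its rank beside genes with an added copy is uncertain. The ATP synthase genes mt-Atp8 and mt-Atp6 also overlap each other, by 43 bases. Values that were not whole numbers made up 62.3% of mRNA values and 8.10% of tRNA values in the with-selection table.

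The first comparison asked whether the epididymosomal load of mitochondrial RNA differed between MSUS and Control males. As shares of the library, it did not pass a test in either table. Control libraries 3, 5, 7, 9 and 11 of the with-selection table held 1.24, 2.54, 1.94, 1.88 and 1.82% mitochondrial RNA and MSUS libraries 2, 4, 6, 8 and 14 held 2.18, 2.40, 1.64, 2.70 and 1.01% (the order of animals is the same in every list below). MSUS thus contained both the highest library, 8, and the lowest, 14, and the groups overlapped. Mitochondrial tRNA averaged 0.910 ± 0.396% in Control and 1.00 ± 0.450% in MSUS (SD, n = 5 each; exact two-sided permutation p = 0.722, adjusted p = 0.976 over 8 tests), mitochondrial rRNA 0.932 ± 0.168% and 0.947 ± 0.240% (exact permutation p = 0.865) and mitochondrial mRNA 0.0426 ± 0.0158% and 0.0351 ± 0.00704% (exact permutation p = 0.389). The smallest p these 5 against 5 animals allow is 0.00794.

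The tRNA share in the without-selection table was 0.0868, 0.151, 0.179, 0.205 and 0.174% for Control and 0.260, 0.308, 0.188, 0.263 and 0.101% for MSUS. Of the MSUS libraries 4 lay above the Control mean and 3 above every Control library, while MSUS 14 was low, and the difference of 0.0650 percentage points did not pass (exact permutation p = 0.151, adjusted p = 0.976). Without MSUS 14 the difference was 0.0958 percentage points (exact permutation p = 0.0238, not adjusted). Leaving out each animal in turn gave 0.0440 to 0.0958 percentage points. The value without MSUS 14 is thus shown as the largest of these, so its p cannot count as a test of MSUS. The rRNA share averaged 0.725 ± 0.274% and 0.721 ± 0.231% (exact permutation p = 0.976) and the mRNA share 0.0406 ± 0.0168% and 0.0352 ± 0.00862% (exact permutation p = 0.540). The plot of class shares by group shows this overlap.

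**Figure D2:**
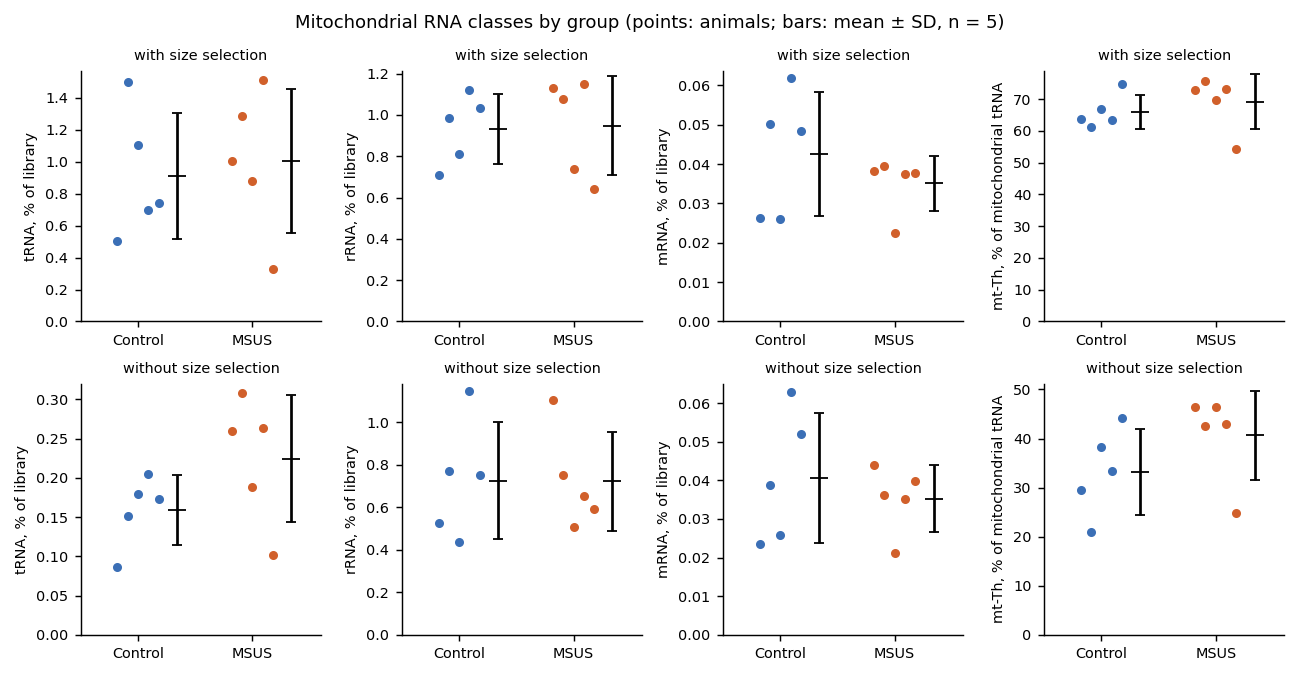
Mitochondrial tRNA, rRNA and mRNA as percent of the library, and mt-Th as percent of mitochondrial tRNA, in Control and MSUS animals (points, n = 5 each; black bars, mean ± SD) of both tables; every axis starts at 0 and scales differ between panels. The groups overlap in every panel, and 4 of 5 MSUS libraries have mt-Th shares of 69.7 to 75.7% (top) and 42.5 to 46.5% (bottom), with MSUS 14 below them.

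Composition within mitochondrial RNA does not depend on how libraries are scaled. The share of mt-Th among mitochondrial tRNAs was 63.6, 61, 67, 63.3 and 74.6% for Control and 72.8, 75.7, 69.7, 73.3 and 54.3% for MSUS in the with-selection table. MSUS 14 was the lowest library in that table, and in the without-selection table it was again the lowest of its group, where Control had 29.5, 21, 38.2, 33.5 and 44.1% and MSUS 46.5, 42.5, 46.5, 42.9 and 24.8%. With all animals the MSUS mean was 3.26 percentage points above Control in the first table (exact permutation p = 0.5, adjusted p = 0.667) and 7.38 above in the second (exact permutation p = 0.246, adjusted p = 0.492). Without MSUS 14 these differences were 6.99 and 11.3 percentage points (exact permutation p = 0.0476 in each, not adjusted). Leaving out each animal in turn gave 1.62 to 6.99 and 4.32 to 11.3 percentage points. The values without MSUS 14 are thus the largest of these, so their p cannot count as a test of MSUS. Without Control 9, Control 11 and MSUS 14 the differences were 9.01 and 15 with no overlap between 3 Control and 4 MSUS animals (exact permutation p = 0.0286 in each, the smallest that these numbers allow, not adjusted). Those 3 libraries were picked from these same data. They include MSUS 14 and the Control library with the highest mt-Th share in both tables, Control 11. This p therefore cannot count as a test of MSUS either. The shares in the tables come from the same animals and are not independent of each other.

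Minus strand tRNAs took 10.8 ± 3.48% of mitochondrial tRNA for Control and 10.6 ± 2.32% for MSUS in the with-selection table (exact permutation p = 0.913), and 23.5 ± 5.00% and 18.2 ± 5.16% in the without-selection table (exact permutation p = 0.135, adjusted p = 0.492). Leaving out MSUS 14 gave a difference of -7.34 percentage points in the latter (exact permutation p = 0.0476, not adjusted). That is the extreme of the values with each animal left out in turn, -7.34 to -3.84, so its p cannot count as a test. The 16S share of rRNA was 82.1 ± 1.90% in Control and 80.1 ± 1.70% in MSUS of the with-selection table (exact permutation p = 0.111, adjusted p = 0.492). Without MSUS 14 it was 2.71 percentage points lower in MSUS (exact permutation p = 0.0317, not adjusted). That is again the extreme of the values with each animal left out in turn, -2.71 to -1.29, and no test. For the other table the 16S share was 80.3 ± 3.82% and 78.1 ± 3.84% (exact permutation p = 0.444). The part of mitochondrial RNA that was tRNA averaged 46.9 ± 10.3% (Control) and 48.4 ± 9.54% (MSUS) with selection (exact permutation p = 0.810), and 17.9 ± 5.82% and 22.9 ± 6.37% without (exact permutation p = 0.246).

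Gene by gene, edgeR's quasi-likelihood test over the whole table called none of the 33 mitochondrial rows that had enough counts in the with-selection table, where it called 0 of 10998 features in all (0%, Benjamini-Hochberg adjusted p under 0.05). The 3 rows left out were mt-Tl2, mt-Td and mt-Tf. DESeq2 called 0 of the 12 mitochondrial rows to which it gave an adjusted p, and 33 of the 550 features to which it gave an adjusted p, and limma voom called 0 of 10998. At an unadjusted p under 0.05, 5 of 33 were higher in MSUS (mt-Rnr1, mt-Rnr2, mt-Tg, mt-Nd5 and mt-Tp), against 3.46% of all features, and 0 were lower, against 2.32%. In no mitochondrial row did the scaled groups fail to overlap, as 0.391% of all features did upwards and 0.473% downwards. Without a filter on low counts the test called 2 mitochondrial rows higher, mt-Rnr1 and mt-Tp, among 48 of 61275 features.

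The direction rested on the scaling. With edgeR's TMM factors 32 of 33 rows had a positive log2 fold change, with a median of 0.62 against -0.00 for all features tested. Without MSUS 8 the median was 0.21, against 0.01 for all features, and 28 of 33 were positive, with mt-Tq, mt-Tm, mt-Ti, mt-Tc and mt-Atp8 negative. Sperm and spermatid markers shared that direction under TMM, 15 of 15 tested being positive with a median of 0.50 and 0 called, and 0 of 15 were positive with library size alone. Muscle and stroma markers did so in 12 of 13 (median 0.30, 5 of 13 with library size alone), blood markers in 3 of 3 (median 0.20, 0 of 3) and epididymal epithelium markers in 4 of 9 (median -0.04, 0 of 9), with 0 called in each list. The part of these markers in the result was not tested. With library sizes alone 9 of 33 were positive, with a median of -0.14 against -0.58 for all features. With libraries scaled by their miRNA counts and by TMM factors computed on those miRNAs, 18 of 33 were positive and the median was 0.02 against -0.52. TMM factors ran from 0.411 in MSUS 8, which had the most cytosolic tRNA, to 1.76 in Control 9, which had the least. The plot of fold changes under the 2 scalings shows the whole set shifting downwards together.

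**Figure D3:**
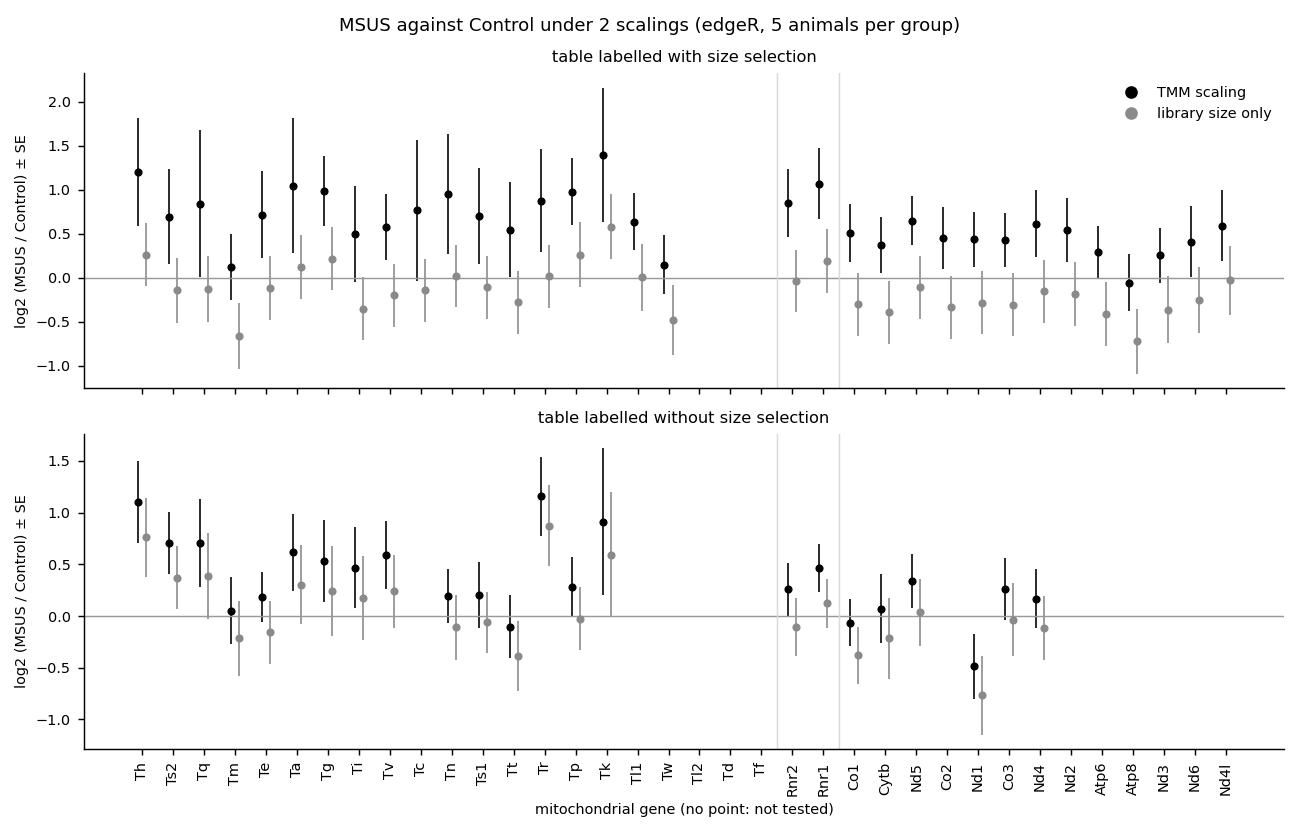
log2 ratio of MSUS to Control with its SE for each mitochondrial RNA tested, with TMM scaling (black) and with library size alone (grey), 5 animals per group, in the table labelled with size selection (top) and without it (bottom). Black points lie above grey ones throughout, 32 of 33 are above 0 in the top panel with TMM and 9 of 33 with library size alone, and none had an adjusted p under 0.05.

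For the leading tRNA mt-Th, levels in the with-selection table were 3195, 9169, 7406, 4407 and 5543 CPM in Control and 7333, 9748, 6135, 11080.5 and 1782 CPM in MSUS. Means were 5944 ± 2378 and 7216 ± 3607 CPM and the groups overlapped, with MSUS 14 lowest and MSUS 8 highest of all. Its log2 fold change was 1.20 ± 0.61 (SE) with TMM (edgeR adjusted p = 0.879), 0.26 with library size alone and 0.61 without MSUS 8. The without-selection table had mt-Th at 256, 317, 686, 686 and 765 CPM in Control and 1210.3, 1311, 874, 1128 and 251 CPM in MSUS, so that 4 MSUS libraries lay above every Control library and MSUS 14 below all of them. The log2 fold change there was 1.10 ± 0.40 (edgeR adjusted p = 0.554), and 0.76 with library size alone. Without Control 9, Control 11 and MSUS 14 it was 1.53 (edgeR adjusted p = 0.0441), 1 of 2 features called of 973. Those 3 libraries were picked from these same data and include MSUS 14, the only MSUS library below every Control one. That call therefore cannot count as a test of MSUS.

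The adjacent mt-Ts2 had 714, 2139.9, 1392, 897 and 606 CPM for Control and 1139.6, 1164, 1020.1, 1392 and 543 CPM for MSUS in the with-selection table. These groups overlapped almost wholly, and the log2 fold change was 0.69 ± 0.54 (edgeR adjusted p = 0.919) with TMM and -0.14 with library size alone. Its levels in the other table were 212, 441, 413, 548 and 348 CPM and 659.8, 751, 383, 557 and 279 CPM (log2 fold change 0.71 ± 0.30, edgeR adjusted p = 0.554). The glutamine tRNA mt-Tq varied most among the abundant tRNAs, with 219, 1255, 800.4, 275 and 174 CPM in Control and 386, 467, 439.5, 1049 and 177 CPM in MSUS of the with-selection table. Control 5 and MSUS 8 were the high libraries, and the log2 fold change of 0.84 ± 0.84 (edgeR adjusted p = 0.952) became -0.13 without MSUS 8. For mt-Ts1 in the without-selection table the levels were 85.3, 156, 189, 84.2 and 103 CPM and 79, 174, 117, 139 and 89.7 CPM, with the highest in Control 7 and a log2 fold change of 0.20 ± 0.32 (edgeR adjusted p = 0.828).

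The 16S rRNA mt-Rnr2 stood at 5808, 7927, 6503, 9531 and 8542 CPM in Control and 9022, 8646, 5811, 9061 and 5299 CPM in MSUS of the with-selection table, with means of 7662 ± 1510.0 and 7568 ± 1853 CPM. The log2 fold change of 0.85 ± 0.39 with TMM (edgeR adjusted p = 0.859) was -0.03 with library size alone and 0.44 without MSUS 8. The 12S rRNA mt-Rnr1 had the smallest p of the 33 rows, with 1292, 1935, 1585, 1691 and 1775 CPM in Control and 2301, 2125, 1582, 2429 and 1097 CPM in MSUS. Of the MSUS libraries 3 lay above every Control library and MSUS 14 below all of them (log2 fold change 1.07 ± 0.40, edgeR adjusted p = 0.839, and 0.19 with library size alone). For the without-selection table, mt-Rnr2 had 4292, 6196, 3214, 9562 and 6124 CPM and 9064, 5778, 3800.2, 4842 and 4834 CPM (log2 fold change 0.26 ± 0.25, edgeR adjusted p = 0.730). There mt-Rnr1 had 957, 1483, 1146, 1875 and 1382 CPM and 1951, 1752, 1264, 1681 and 1061 CPM (0.47 ± 0.23, edgeR adjusted p = 0.554), with both groups spanning much the same range.

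Of the mRNAs, mt-Co1, a catalytic subunit of cytochrome oxidase, was at 71, 135, 63.6, 144 and 108 CPM in Control and 83, 103, 57.2, 92.1 and 92.2 CPM in MSUS of the with-selection table. Cytochrome b, mt-Cytb, of complex III was at 28.6, 55.6, 28.2, 75 and 60.0 CPM and 44.5, 42.7, 23.6, 38.9 and 41.1 CPM, and mt-Nd5 of complex I at 25.6, 35.3, 27.2, 58.1 and 43.1 CPM and 39.3, 42.3, 26.3, 34.7 and 35.1 CPM. For all 3 genes Control 9 was the highest library, and the log2 fold changes with TMM were 0.51 ± 0.33, 0.37 ± 0.32 and 0.65 ± 0.28 (edgeR adjusted p = 0.890, 0.934 and 0.845), against -0.30, -0.39 and -0.11 with library size alone. The minus strand mRNA mt-Nd6 had 4.30, 14.7, 5.52, 14.7 and 7.54 CPM and 12.1, 8.74, 4.82, 7.67 and 5.87 CPM (0.41 ± 0.41, edgeR adjusted p = 0.952). The only negative value of the 33 was that of mt-Atp8, with 11.8, 18.7, 10.3, 26.1 and 26.5 CPM in Control and 11.5, 13, 5.75, 13.1 and 14 CPM in MSUS (-0.06 ± 0.32, edgeR adjusted p = 1.00). In plain CPM, all 13 mRNAs had a lower mean for MSUS than for Control in this table, whereas 12 of 13 had a positive fold change with TMM.

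Of the 36 rows of the without-selection table, 23 had enough counts (15 tRNAs, both rRNAs and 6 mRNAs) and 0 were called, as were 0 of 1075 features in all (0%, edgeR adjusted p under 0.05). DESeq2 and limma voom called 0 features there too. At an unadjusted p under 0.05, 3 of 23 were higher in MSUS (mt-Th, mt-Ts2 and mt-Tr), against 3.53% of all features, and 0 were lower, against 4.37%. No mitochondrial row had groups that did not overlap (0% of all features upwards, 1.40% downwards). With TMM 20 of 23 had a positive fold change (median 0.28, against 0.01 for all features), and with library size alone 11 of 23 (median -0.03, against -0.30). The arginine tRNA mt-Tr (chrM:9808-9875, plus strand) had the smallest p, with 8.25, 31.3, 13.6, 23.8 and 19.5 CPM in Control and 74.3, 42.9, 37, 33.8 and 15.4 CPM in MSUS. Of the MSUS libraries 4 were above every Control library and MSUS 14 was within the Control range (log2 fold change 1.16 ± 0.38, edgeR adjusted p = 0.554). These levels rest on 3 to 20 counts per library. Among negative values the smallest p was that of mt-Nd1, a complex I subunit, with 16.5, 31.3, 23.9, 71.5 and 66.6 CPM and 32.5, 26.8, 18.5, 25.3 and 33.7 CPM (-0.49 ± 0.32, edgeR adjusted p = 0.593).

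The leading mRNAs of the without-selection table did not pass either. There mt-Co1 had 62.4, 86, 87, 144 and 106 CPM in Control and 93.3, 71.5, 54.3, 82 and 93.7 CPM in MSUS (log2 fold change -0.06 ± 0.23, edgeR adjusted p = 0.922). Cytochrome b, mt-Cytb, had 31.6, 45.3, 8.53, 65.1 and 51.6 CPM and 51.1, 53.6, 23.2, 35.9 and 32.9 CPM (0.07 ± 0.33, edgeR adjusted p = 0.948), with Control 7 lowest. For mt-Co3, a structural subunit of cytochrome oxidase which has an identical nuclear copy, the levels were 23.4, 42.2, 13.6, 58.5 and 42.8 CPM and 53.4, 33.5, 22.2, 40.1 and 44.2 CPM (0.26 ± 0.30, edgeR adjusted p = 0.762). The row of mt-Nd6 held at most 5.5 counts per library and was not tested. The MSUS effect itself was also compared between the tables, as an interaction with the animal as a block: 0 of 30 mitochondrial rows and 0 of 5725 features differed (0%, edgeR adjusted p under 0.05), and 1 row, mt-Nd1, had an unadjusted p under 0.05 (-0.71, edgeR adjusted p = 1.00).

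The second comparison set the without-selection table against the with-selection table of the same 10 animals. Run, selection and depth differ together between them and cannot be told apart. Mitochondrial tRNA held 0.956% ± 0.403 of counts in the with-selection table and 0.192% ± 0.0706 in the other and was lower in 10 of 10 animals (exact sign-flip permutation p = 0.00195, the smallest 10 animals allow, adjusted p = 0.00313 over 8 tests). Mitochondrial rRNA went from 0.940% ± 0.195 to 0.723% ± 0.239, lower in 9 of 10 animals (exact permutation p = 0.00391, adjusted p = 0.00521). Mitochondrial mRNA was at 0.0388% ± 0.0122 and 0.0379% ± 0.0129, lower in 6 animals and higher in 4 (exact permutation p = 0.604), and the SD of the within-animal difference, 0.00471 percentage points, was smaller than the SD among animals in either table. That result rested on the denominator: the difference, without-selection minus with-selection table, was -0.0205 percentage points of counts other than cytosolic tRNA and -0.239 percentage points relative to mature miRNA (exact permutation p = 0.00195 each). The share of tRNA in mitochondrial RNA was thus 47.7% ± 9.41 in one table and 20.4% ± 6.31 in the other, with 10 of 10 animals lower (exact permutation p = 0.00195). Cytosolic tRNA moved the same way, with medians of 39.2% and 14.3% of counts, and its part in the result was not tested.

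**Figure D4:**
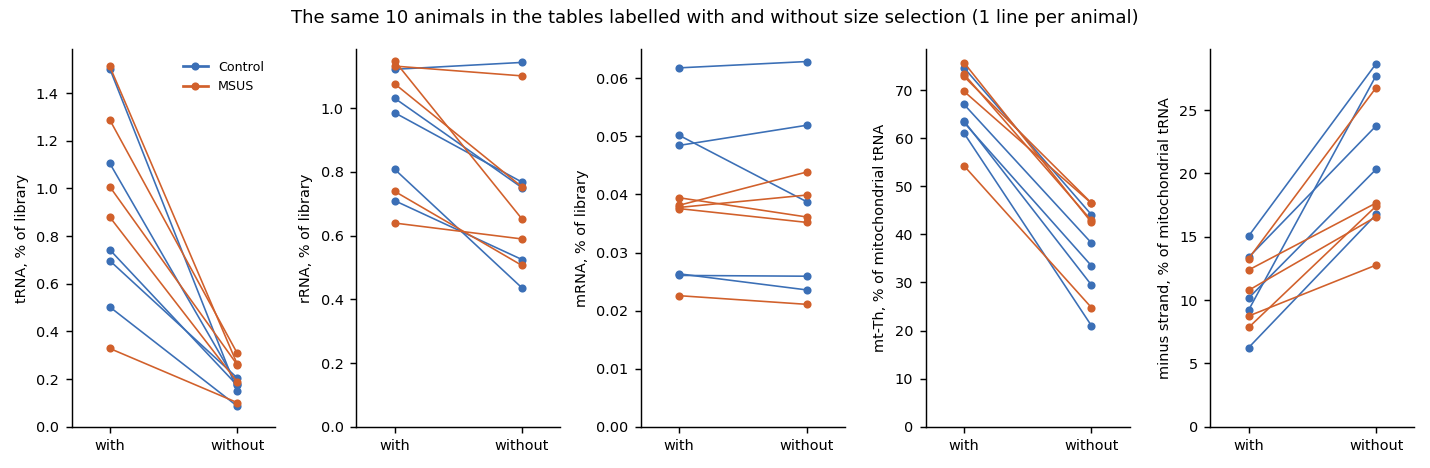
Mitochondrial tRNA, rRNA and mRNA as percent of the library, and mt-Th and minus strand tRNAs as percent of mitochondrial tRNA, in both tables (left, labelled with size selection; right, without); each line joins the 2 libraries of an animal (blue Control, orange MSUS) and every axis starts at 0. The tRNA lines fall in 10 of 10 animals and the mRNA lines, as percent of the library, stay nearly level.

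The share of mt-Th fell by 30.6 percentage points between the tables, in 10 of 10 animals (exact permutation p = 0.00195, adjusted p = 0.00313). The share of minus strand tRNAs rose by 10.1 percentage points, from 10.7% ± 2.79 to 20.9% ± 5.52, also in 10 of 10 (exact permutation p = 0.00195). Counted without mt-Th, however, the minus strand share was 33.2% ± 7.06 and 32.6% ± 4.72 and differed by -0.610 percentage points (exact permutation p = 0.811; this form was added after the data were seen). The 16S share of rRNA was 1.89 percentage points lower in the without-selection table (exact permutation p = 0.0605, adjusted p = 0.0692).

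Over single genes, 16 of the 30 mitochondrial rows tested in both tables were called by edgeR with TMM, against 38.7% of 5725 features. That fit held group and table and did not pair the libraries of an animal. Ratios and edgeR p-values between the tables below come from it unless another setting is named. Of these 12 were higher in the without-selection table (18.8% of all features were) and 4 were lower (19.9%). The higher ones were 9 of 11 mRNAs and the tRNAs mt-Ts1, mt-Tp and mt-Tk, and the lower ones were the tRNAs mt-Th, mt-Tq, mt-Tm and mt-Tg. Keeping the animal as a replicate block raised these counts to 18 higher and 7 lower, against 20.8% and 21.7% of all features. Both rRNAs were then called higher, mt-Rnr1 (0.62 ± 0.13, edgeR adjusted p = 6.1e-04) and mt-Rnr2 (0.47 ± 0.16, edgeR adjusted p = 0.0211). Their share of the library was lower in the without-selection table, so their direction depended on the scaling. With library size alone, which moved the median of all features from -0.06 to -1.06, 3 were higher and 12 lower, against 7.35% and 73.6% of all features. The plot of ratios between the tables shows which genes keep their side of 0 under both scalings.

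**Figure D5:**
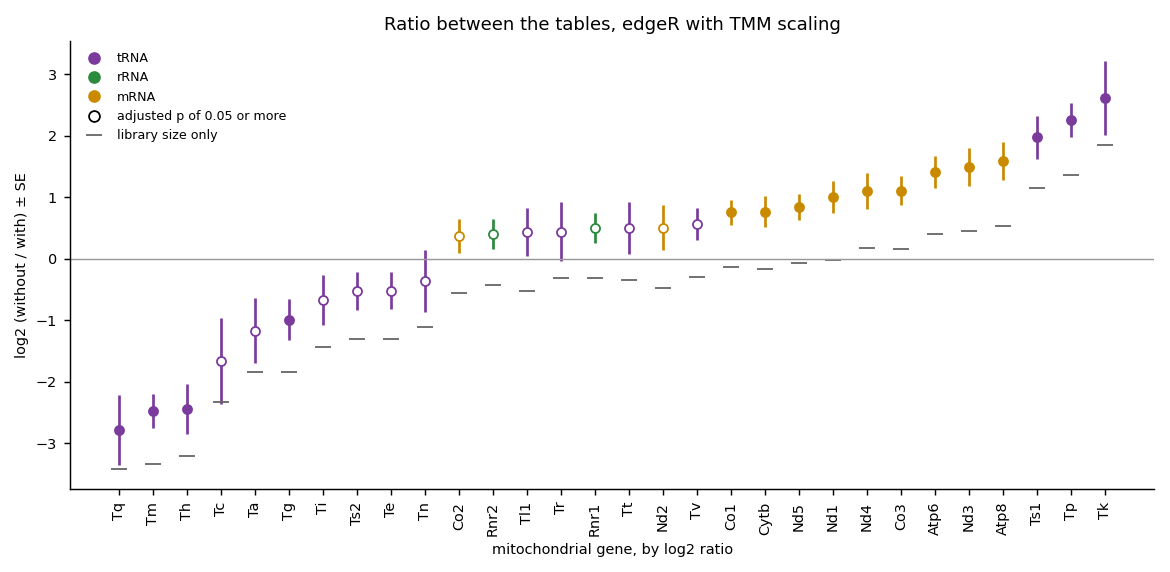
log2 ratio of the table labelled without to the table labelled with size selection, with its SE, for the 30 mitochondrial RNAs tested in both, over 20 libraries with TMM scaling and without pairing by animal. Filled points have an adjusted p under 0.05, and dashes give the ratio with library size alone. The tRNAs mt-Tq, mt-Tm and mt-Th are at the low end and mt-Ts1, mt-Tp and mt-Tk at the high end under both scalings, whereas 5 of 11 mRNAs are above 0 once library size alone is used.

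The tRNAs printed above mark the extremes. Plain levels of mt-Th averaged 6580 ± 2957 CPM in the with-selection table and 748 ± 391 in the without-selection table, 8.79 times lower, in 10 of 10 animals (log2 ratio -2.45 ± 0.41, edgeR adjusted p = 3.9e-05). The glutamine tRNA mt-Tq fell from 524 ± 382 to 51.8 ± 28.2 CPM (-2.78 ± 0.57, edgeR adjusted p = 6.1e-04) and the methionine tRNA mt-Tm from 406 ± 172 to 39.9 ± 17.2 CPM (-2.48 ± 0.27, edgeR adjusted p = 2.2e-08), each in 10 of 10 animals. The glycine tRNA mt-Tg (chrM:9391-9458, plus strand) went from 117 ± 38.0 to 33.1 ± 17.9 CPM (-0.99 ± 0.33, edgeR adjusted p = 0.0221). The other direction was taken by mt-Ts1, from 53.6 ± 21.3 to 122 ± 40.6 CPM (1.98 ± 0.35, edgeR adjusted p = 1.2e-04), by mt-Tp, from 14.9 ± 4.63 to 39.7 ± 10.7 CPM (2.26 ± 0.28, edgeR adjusted p = 4.1e-07), and by mt-Tk, from 13.9 ± 8.27 to 52.6 ± 38.4 CPM (2.61 ± 0.60, edgeR adjusted p = 0.00205). Each of these 3 was higher in 10 of 10 animals and remained called with library size alone.

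The 3 tRNAs that rose did so animal by animal. In the with-selection table mt-Tk was at 2.53, 18.2, 17.4, 7.57 and 9.59 CPM in Control and 10.4, 19.5, 17.8, 30.3 and 5.52 CPM in MSUS, and in the without-selection table at 8.25, 65.7, 85.3, 28.6 and 22.9 CPM and 23.2, 93.8, 74.1, 114 and 9.81 CPM. The lowest Control animal was 3 and the lowest MSUS animal 14 in both tables, and the highest was MSUS 8 in both. For mt-Ts1 the with-selection values were 39, 97.8, 63.5, 46.5 and 30.2 CPM and 39.1, 73.4, 48.2, 65.5 and 32.5 CPM, and for mt-Tp they were 5.57, 18.2, 8.28, 19.1 and 15.9 CPM and 16.9, 18.5, 13.7, 18.7 and 14.2 CPM. All without-selection values of mt-Tp, 17.9, 46.9, 54.6, 46.1 and 32.1 CPM in Control and 37.2, 40.2, 38.9, 50.7 and 32.2 CPM in MSUS, exceed that animal's own with-selection value.

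The mRNAs called higher between the tables were mt-Atp6 (1.41 ± 0.26, edgeR adjusted p = 1.2e-04), mt-Atp8 (1.59 ± 0.31, adjusted p = 2.3e-04), mt-Nd3 (1.49 ± 0.31, adjusted p = 3.3e-04), mt-Co3 (1.11 ± 0.24, adjusted p = 5.9e-04), mt-Nd5 (0.84 ± 0.21, adjusted p = 0.0019), mt-Co1, mt-Nd1, mt-Nd4 and mt-Cytb. On plain shares the change was small: mt-Atp8 had 15.1 ± 6.73 and 21.6 ± 13.8 CPM and was higher in 9 of 10 animals, mt-Co3 33.1 ± 12.1 and 37.4 ± 14.2 CPM and higher in 7, and mt-Nd5 36.7 ± 9.81 and 36.3 ± 11.4 CPM and higher in 4. Several of these rows held few counts in the without-selection table. Counts per library there were 1.33 to 38.3 for mt-Atp8, 0.5 to 21 for mt-Nd3 and 3 to 38.8 for mt-Atp6. With library size alone 0 of 11 mRNAs were called higher and 1 was called lower. Without Control 9, Control 11 and MSUS 14, 3 of 11 mRNAs and 6 of 29 mitochondrial rows in all were called higher, against 13.8% of 4717 features, and 6 of 29 were called lower, against 12.8%.

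Nuclear genes of the same pathways were read alongside. Of 79 nuclear genes for subunits of the respiratory chain and ATP synthase, 75 were tested for MSUS against Control in the with-selection table and 0 were called by edgeR, with a median log2 fold change of 0.01 against -0.00 for all features. The smallest p was that of Ndufa2, a complex I subunit (0.39 ± 0.14, edgeR adjusted p = 0.839). None of 13 tested genes of mitochondrial transcription and RNA processing and none of 8 tested mitochondrial aminoacyl-tRNA synthetases were called, the smallest p being those of Mtpap, the mitochondrial poly(A) polymerase (0.46 ± 0.25, edgeR adjusted p = 0.879), and Lars2, which charges leucine tRNAs (1.06 ± 0.62, edgeR adjusted p = 0.882). Between the tables, by edgeR with TMM, 33 of 65 tested nuclear respiratory chain genes were called lower in the without-selection table and 1 was called higher. Their median was -0.55 against -0.06 for all features, of which 19.9% were called lower and 18.8% higher. Of 11 mitochondrial mRNAs 0 were lower and 9 higher. With library size alone the counts were 64 lower and 0 higher of 65 nuclear genes, against 73.6% and 7.35% of all features. In that setting 1 of 11 mitochondrial mRNAs was lower and 0 were higher. Of the chromosome 1 copies, 4 of 5 tested were called higher with TMM (median 0.92), 5 of 5 with the animal as a block, and 0 higher and 1 lower with library size alone. How reads were divided between these copies and the matching mitochondrial mRNAs is not known, so they are no separate result about nuclear genes. The RNA processing factors Lrpprc, Slirp and Nsun2 were the 3 of 4 tested in that list to be called lower, and Gars the 1 of 4 tested synthetases.

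Relations among classes across the 10 animals were computed as 9 correlations, adjusted together. In the without-selection table the shares of mitochondrial rRNA and mitochondrial mRNA rose together (Pearson r = 0.826, permutation p = 0.00345, adjusted p = 0.0310; Spearman rho = 0.794, permutation p = 0.00937, adjusted p = 0.0843). Without the 2 animals farthest from the median of rRNA, r was 0.783, and in the 7 libraries other than Control 9, Control 11 and MSUS 14 it was 0.905 (permutation p = 0.00389). In the with-selection table the same pair had r = 0.626 (permutation p = 0.0549, adjusted p = 0.135). Mitochondrial and cytosolic tRNA had r = 0.687 in the with-selection table (permutation p = 0.0271, adjusted p = 0.122), which was 0.483 in the 7 libraries. The mRNA share and sperm and spermatid markers had r = 0.593 and 0.312 in the 2 tables (permutation p = 0.0706 and 0.380), and the total of mitochondrial RNA had r = 0.460 between the tables (permutation p = 0.184). Shares of a library are parts of one total, and each group of 5 animals is too small for a correlation of its own.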

How the data were processed

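Small RNA of cauda epididymosomes was measured in 20 samples, 10 animals (5 Control, 5 MSUS) each sequenced in 2 runs and deposited as 2 tables. The values are estimated counts per annotated feature, deposited by the authors; STAR, edgeR and GRCm38 are named in the submitters' processing notes, without a stated role. Read assignment, strand and multimapping are not given in the sources used here, and read lengths were not analysed here. Values deposited by the authors that were not whole (tolerance 0.001) were rounded for count tests, which changed library totals by at most 0.689%.

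CPM are plain shares of the library total times 1000000. Tests over whole tables used edgeR 4.0.16 (R 4.3.3, filterByExpr, TMM, robust quasi-likelihood fit) with Benjamini-Hochberg adjustment at 0.05. The alternatives were limma 3.58.1 and DESeq2 1.42.0. The edgeR fit was run on counts simulated from the means and dispersions of these data, which cannot test the choice of scaling. Shares were compared by exact permutation, or by sign flips within animals, in Python 3.11.15 (NumPy 2.4.6, SciPy 1.17.1, pandas 2.3.3), and correlations with 100000 permutations. The tables were fitted separately except where compared with each other. Replicate numbers pair the tables because a number marks the same animal: over 177 miRNAs, deviations of an animal's 2 libraries correlated at 0.561 to 0.851, and at most at 0.531 with another animal. The labels do not say whether animals were littermates, so p-values of MSUS against Control measure the spread between these animals only. Sign-flip p-values rest on differences within animals. The main edgeR fit between the tables took the libraries of an animal as separate samples.

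Values in every sample are given for the 3 most abundant tRNAs, both rRNAs and the 3 most abundant mRNAs. They are also given for the row with the smallest p in each direction and, in the with-selection table only, for mt-Nd6. Between the tables up to 8 called rows per direction are named. The members and lists were chosen with earlier results of these data known. Sequences and coordinates are from GENCODE vM21 on GRCm38.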

Additional observations from a re-analysis of the deposited data

Results flagged for a closer look

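Of 88 groups of 5 libraries tested with Dixon's ratio (critical value 0.71), 5 held a library far from the others, and chance alone flags about 1 in 20. In the with-selection table MSUS 6 had 0.0226% mitochondrial mRNA against 0.0376% in the nearest MSUS library, and mt-Cytb at 23.6 CPM against 38.9 CPM. The share of mt-Th among mitochondrial tRNAs in MSUS 14 was 54.3% in that table, with the nearest MSUS library at 69.7%. The same animal had 24.8% in the without-selection table, with the nearest at 42.5%. In Control 7 of the without-selection table tRNA made up 28% of mitochondrial RNA, and the nearest Control library had 17.8%.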

How the results depend on the processing

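Between the tables the numbers pair the samples by animal. With the animal as a replicate block, 18 mitochondrial rows were higher and 7 lower in edgeR, 18 and 7 in DESeq2 with the replicate block, and 2 mitochondrial synthetases were lower. With library size alone 3 rows were higher and 12 lower, against 7.35% and 73.6% of all features. In that setting 0 nuclear respiratory chain genes were higher and 64 lower, and 4 synthetases were lower. Of the chromosome 1 copies 0 were higher and 1 lower, and the log2 ratio of mt-Nd5 was -0.062. Without Control 9, Control 11 and MSUS 14, 6 were higher and 6 lower, and with the animal as a block 5 chromosome 1 copies were higher. No paired analysis was possible for MSUS against Control because the groups share no animal number.

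For MSUS against Control, 2 rows were called higher in the with-selection table without a low-count filter, and 1 in the without-selection table without Control 9, Control 11 and MSUS 14; the interaction's median was then 0.14. With library size alone the median log2 fold change in the with-selection table was -0.14, and mt-Ts2 (-0.14), mt-Tq (-0.13), mt-Rnr2 (-0.035), mt-Co1 (-0.30), mt-Cytb (-0.39), mt-Nd5 (-0.11) and mt-Nd6 (-0.25) turned negative, as did mt-Ts1 (-0.062), mt-Rnr2 (-0.10), mt-Cytb (-0.22) and mt-Co3 (-0.034) in the without-selection table. Scaled by miRNA counts and TMM factors computed on the miRNAs, mt-Co1 (-0.15), mt-Cytb (-0.25) and mt-Nd6 (-0.10) turned in the first table and mt-Ts1 (-0.12), mt-Rnr2 (-0.081), mt-Cytb (-0.19) and mt-Co3 (-0.032) in the second. The value of mt-Atp8 was 0.076 in DESeq2 and 0.39 without the 3 libraries, which also turned mt-Ts1 (-0.048), and mt-Co1 of the second table was 0.0033 with its chromosome 1 copy added. The cause of these changes was not tested.

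Among class shares (MSUS minus Control, percentage points), mitochondrial mRNA of the with-selection table was 0.00813 as a share of counts other than cytosolic tRNA and 0.000237 without the 3 libraries. The minus strand share was 0.00792 on the log2 scale and 3.72 with mt-Th left out, and the mt-Th share 9.01 without the 3 libraries. In the without-selection table rRNA was 0.0114 outside cytosolic tRNA, 0.0197 on the log2 scale and 0.177 without the 3 libraries, which gave 0.00465 for mRNA, -10.6 for the minus strand and 15 for mt-Th. Between the tables mRNA differed by -0.0205 outside cytosolic tRNA and by -0.239 relative to mature miRNA and passed the test under both, and the minus strand share by -0.610 without mt-Th. Cytosolic and mitochondrial tRNA of the with-selection table had r of 0.581 without 2 libraries and 0.483 without the 3, and sperm markers with mRNA of the other one had 0.805 without 2.

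Leaving out each animal in turn kept 0 mitochondrial rows called for MSUS against Control in both tables, and 11 to 15 higher and 3 to 4 lower between them. The median log2 fold change of the with-selection table ranged from 0.21 (without MSUS 8) to 0.91. Fold changes that changed sign were those of mt-Tq (-0.13 to 1.44) and mt-Atp8 (-0.35 to 0.11) in the with-selection table, and of mt-Ts1 (-2.3e-05 to 0.45), mt-Co1 (-0.17 to 0.047) and mt-Cytb (-0.11 to 0.25) in the other. Class differences in the with-selection table ranged from -0.0769 to 0.346 for all mitochondrial RNA, -0.0342 to 0.262 for tRNA, -0.0398 to 0.0927 for rRNA, -0.948 to 5.46 for tRNA within mitochondrial RNA, -1.35 to 0.849 for the minus strand, -0.0116 to -0.00266 for mRNA, 1.62 to 6.99 for mt-Th and -2.71 to -1.29 for 16S. In the without-selection table they ranged from -0.0508 to 0.177, 0.0440 to 0.0958 and -0.0993 to 0.101 for the first 3, -0.00964 to 0.000191 for mRNA, -7.34 to -3.84 for the minus strand 4.32 to 11.3 for mt-Th, -3.85 to -1.26 for 16S and 3.64 to 7.45 for tRNA within mitochondrial RNA. Between the tables, mRNA ranged from -0.00165 to 0.000259 and 16S from -2.39 to -1.36. At 3 to 20 counts a library, rows such as mt-Tr of the without-selection table are limited by depth.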
